A study of Mus musculus with 34 samples.

Results

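Fos is 1 of the AP-1 monomers, proteins that bind DNA as dimers, and proteins of the Fos subfamily do not dimerise among themselves, so that Fos binds with a partner from outside it. In resting C57Bl/6EiJ thioglycollate elicited macrophages (TGEMs), 1804 Fos peaks were listed, and 602 of them (33.4%, 95% Wilson interval 31.2% to 35.6%) shared not a single base with a peak of ATF3, Jun or JunD. These 602 regions were selected on that overlap, and they are called lone Fos peaks here. The name holds only for those 3 lists. A peak of FosL2 or JunB in the same resting cells overlapped 14 of the 602 peaks. The other 1202 Fos peaks, which overlapped at least 1 of the 3 lists, are the comparison throughout.

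The 34 samples were ChIP-seq libraries of TGEMs, macrophages drawn from the peritoneum of male mice after a thioglycollate injection, and 30 of the samples had a peak list. The labels give 3 days of growth, whereas the methods of the study place 3 days between injection and collection and the treatment on the day after plating. Cells were C57Bl/6EiJ by their genotype label (C57BL/6J in the text of the study) or Balb/cJ, or carried the PPARgKO genotype. The titles of the knockout samples place them on a C57Bl6 background. Cells received PBS (Veh) or Kdo2 lipid A (KLA), an agonist of TLR4, for 1 h. Lists of ATF3, Jun, JunD, Fos, FosL2, JunB, PU.1 and CEBPα were used from C57Bl/6EiJ cells with Veh and with KLA, and of PPARγ with Veh. From Balb/cJ cells the lists of ATF3, Jun, JunD, Fos and JunB in both treatments were used, and from PPARgKO cells those of ATF3, Jun and JunD with Veh. The labels only name the knockout, and how the allele was deleted is not given in the sources used here. All cells were cross-linked with disuccinimidyl glutarate and then formaldehyde. Each condition had 1 list for all of its replicate experiments, so no spread between replicates could be computed, and every interval below covers counting error over peaks only.

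The depth of the lists differed widely. The deposited counts, which are not scaled to library size, summed to between 9196 and 13809143 over the lists with more than 9 peaks, and the resting Fos list was among the smallest, with 1804 peaks and a sum of 47570. The Balb/cJ list of resting Fos held no peak and that of resting JunB held 9, so the strain comparison of Fos rests on the KLA list. A longer list overlaps more peaks of any other list, and counts were compared only within a list.

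AP-1 dimers recognise the TRE, a palindrome of 7 bases, or the longer CRE. PU.1 and CEBPα mark the enhancers of macrophages, most of them far from genes, and AP-1 binds many of the same enhancers. Promoters of widely expressed genes are different in sequence. They lie in DNA rich in G, C and the CpG dinucleotide, and many hold a CCAAT box, the site of the trimeric factor NF-Y, within a short distance upstream of the transcription start. NF-Y has subunits with a histone-like fold and is present in most cell types.

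The lone Fos peaks were promoter peaks with CCAAT boxes. The sequences of the central 200 bp of the 4 strongest promoter peaks among them, ranked by deposited count, are shown because each holds 2 or more copies of the pentamer CCAAT or its reverse complement, in capitals, and none holds a TRE. All are read on the plus strand of GRCm38, the RefSeq build of mm10. In the order printed they are chr7:3644933-3645132, chr7:113207181-113207380, chr13:119690029-119690228 and chr15:76351102-76351301. They lie upstream of Gm15927 and Cnot3, of Arntl, of Hmgcs1, and of Sharpin and Maf1, and only the Sharpin window reaches into annotated exons, by 18 bases.
Gm15927 and Cnot3 promoter: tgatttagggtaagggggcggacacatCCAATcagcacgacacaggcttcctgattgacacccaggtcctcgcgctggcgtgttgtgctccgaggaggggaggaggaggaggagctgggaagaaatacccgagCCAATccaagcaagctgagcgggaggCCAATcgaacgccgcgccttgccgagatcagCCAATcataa
Arntl promoter: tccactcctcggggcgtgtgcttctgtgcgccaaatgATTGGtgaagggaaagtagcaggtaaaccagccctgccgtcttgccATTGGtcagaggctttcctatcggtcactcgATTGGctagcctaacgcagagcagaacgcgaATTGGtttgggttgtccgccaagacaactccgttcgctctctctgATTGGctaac
Hmgcs1 promoter: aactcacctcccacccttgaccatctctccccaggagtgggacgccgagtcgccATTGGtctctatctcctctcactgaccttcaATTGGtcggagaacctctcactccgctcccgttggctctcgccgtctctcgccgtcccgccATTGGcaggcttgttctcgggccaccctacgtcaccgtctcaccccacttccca
Sharpin and Maf1 promoter: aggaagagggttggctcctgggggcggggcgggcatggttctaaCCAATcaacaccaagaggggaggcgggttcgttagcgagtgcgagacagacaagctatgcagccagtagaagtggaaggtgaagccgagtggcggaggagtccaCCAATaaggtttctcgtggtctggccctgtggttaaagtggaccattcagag

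Outside promoters the same pentamer was present. The central 200 bp of the 3 strongest lone Fos peaks more than 1000 bp from any transcript start are given with CCAAT again in capitals. They are chr10:81432905-81433104 in an intron of Nfic, chr10:80159909-80160108 in intergenic DNA 5976 bp from the nearest start, that of Cirbp, and chr10:81571607-81571806 in intergenic DNA 2854 bp upstream of Tle2.
Nfic intron: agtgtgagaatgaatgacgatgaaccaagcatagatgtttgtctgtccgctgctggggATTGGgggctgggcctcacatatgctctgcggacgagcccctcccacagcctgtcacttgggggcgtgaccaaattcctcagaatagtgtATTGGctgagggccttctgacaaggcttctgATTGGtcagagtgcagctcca
Cirbp region: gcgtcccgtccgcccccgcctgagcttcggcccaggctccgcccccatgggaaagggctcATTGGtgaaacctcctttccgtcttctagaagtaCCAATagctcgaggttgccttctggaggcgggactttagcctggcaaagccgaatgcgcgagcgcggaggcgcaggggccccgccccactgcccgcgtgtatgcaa
Tle2 region: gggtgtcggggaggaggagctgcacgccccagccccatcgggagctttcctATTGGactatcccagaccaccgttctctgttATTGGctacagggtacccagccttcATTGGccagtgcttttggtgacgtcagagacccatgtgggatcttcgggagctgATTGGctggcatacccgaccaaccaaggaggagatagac

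Only 9 of the 602 peaks held a TRE in that window. The 2 strongest of them are printed with both the TRE and CCAAT in capitals, at chr2:180119037-180119236, upstream of Osbpl2, and chr2:84678166-84678365, upstream of Med19, where 9 bases are exonic. Both hold CCAAT as well.
Osbpl2 promoter: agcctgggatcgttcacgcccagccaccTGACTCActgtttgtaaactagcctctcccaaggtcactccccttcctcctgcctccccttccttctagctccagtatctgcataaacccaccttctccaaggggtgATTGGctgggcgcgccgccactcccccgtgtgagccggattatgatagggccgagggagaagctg
Med19 promoter: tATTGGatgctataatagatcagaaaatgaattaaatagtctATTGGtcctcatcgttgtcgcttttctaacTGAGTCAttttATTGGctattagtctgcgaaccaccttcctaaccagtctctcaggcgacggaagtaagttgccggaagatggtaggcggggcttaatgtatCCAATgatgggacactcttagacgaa

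Counted over all 602 peaks, CCAAT stood on either strand in the central 200 bp of 578 (96%, 94.1% to 97.3%), against 542 of the other 1202 Fos peaks (45.1%), a difference of 50.9 percentage points (95% Newcombe interval 47.5 to 54). Over all 1804 resting Fos peaks the share was 62.1%. The pentamer is short and is frequent by itself. Of 21935 windows of the same length centred on protein-coding gene starts, 28.1% held it, and of the 10533 CpG-rich ones 27.7%. A TRE, searched as TGACTCA on either strand, was in 9 lone Fos peaks (1.5%, 0.788% to 2.82%) and in 509 of the others (42.3%). The difference was -40.9 points (-43.8 to -37.8), and 28.7% of all resting Fos peaks held one. Among promoter peaks alone, a TRE was in 1.06% of the lone Fos peaks and 17.1% of the others, and CCAAT in 97.2% and 74.3%. Among gene starts the TRE share was 2.79%, and among the CpG-rich ones 1.34%. Both values lie within the interval of the lone Fos peaks. With only the strongest 50% of the ATF3, Jun and JunD lists in the rule, the TRE share was 3.28%.

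Most lone Fos peaks held several CCAAT boxes. The 602 windows held 1382 sites, a mean of 2.3 per peak, and 482 peaks (80.1%) held at least 2. Exactly 1 site stood in 96 peaks, 2 sites in 247, 3 or more in 235 and none in 24, and the highest number was 7. The other Fos peaks had a mean of 0.808, and 287 of them (23.9%) held 2 or more. The count of Fos tags was higher where sites were more numerous. Its median among lone Fos peaks was 15.5 with no CCAAT (range 13 to 63), 22 with 1 site (14 to 74), 24 with 2 (13 to 94) and 31 with 3 or more (13 to 112). The ranges overlapped at every step. Only 21 lone Fos peaks held neither CCAAT nor TRE, and their median count was 16.

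The sites lay under the middle of the peaks. In bins of 20 bp, CCAAT reached 34.9 sites per 100 lone Fos peaks in the bin from 0 to 20 bp after the centre, while bins more than 250 bp away held 0.997 to 3.49. Within 50 bp of the centre there were 15.3 sites per kb, and beyond 250 bp there were 1.18. For the peaks that held a site within 500 bp, the median distance from the centre to the closest one was 16 bp. The 533 other Fos peaks at promoters had the same central rise at a lower height, 22.1 per 100 peaks, whereas the 669 other Fos peaks outside promoters stayed between 1.35 and 3.89.

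**Figure D1:**
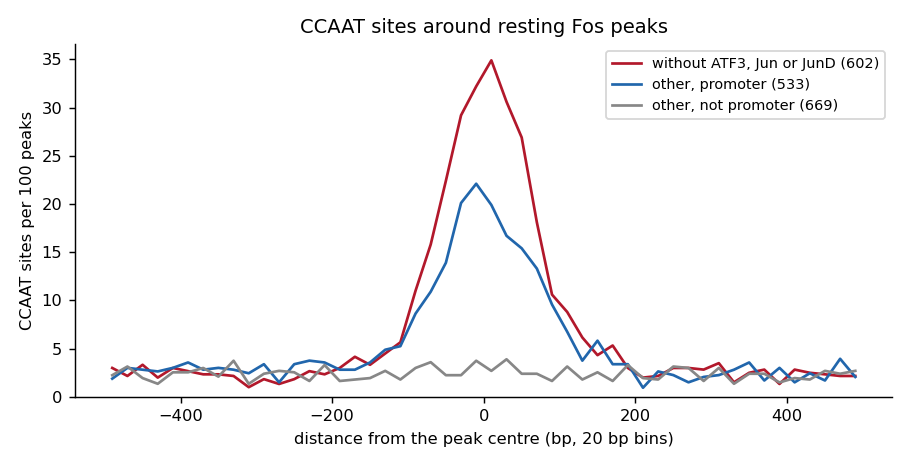
CCAAT sites on either strand per 100 peaks, in bins of 20 bp, against the distance in bp from the centre of a resting Fos peak. The line of the 602 peaks without ATF3, Jun or JunD rises to 34.9 at the centre, that of the other 533 promoter peaks to 22.1, and that of the other 669 peaks stays at or under 3.89.

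A spacing of 31 or 32 bp between neighbouring CCAAT sites was picked from the distances in these peaks, and its shares are given as a description. Of 804 neighbouring pairs in the lone Fos peaks, 94 (11.7%, 9.65% to 14.1%) were this far apart from start to start, and 87 of these 94 had both sites on the same strand. Among the other Fos peaks at promoters 43 of 394 pairs (10.9%) had this spacing. In the 200 bp upstream of the 20925 gene starts with no resting Fos peak within 500 bp, 84 of 1742 pairs did (4.82%, 3.91% to 5.93%). Distances of 41 to 43 bp, the other class counted, made up 8.08% of the pairs in lone Fos peaks, 5.33% in the other promoter peaks and 6.31% at those gene starts. The median distance over all pairs in the lone Fos peaks was 40 bp. Relative to the nearest gene, CCAAT pointed with transcription at 635 sites and against it at 677. The counts of sites, their profile, spacing and orientation were computed after the CCAAT share had been seen.

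By position, the lone Fos peaks sat just before gene starts. A transcript start of a protein-coding or lncRNA gene lay within 1000 bp of the centre of 564 of them (93.7%, 91.5% to 95.4%). The other Fos peaks had 533 of 1202 there (44.3%), a difference of 49.3 points (45.7 to 52.6), and the share over all resting Fos peaks was 60.8%. Within 250 bp lay 527 lone Fos peaks (87.5%). The centre was upstream of the start in 497 of the 564 promoter peaks and downstream in 67, with a median of -71 bp and quartiles of -113 and -34 bp. A second gene started within the same 1000 bp in 164 of the 564. Outside promoters were 38 lone Fos peaks, 4 in exons, 10 in introns and 24 between genes, and 18 of the 602 were more than 10 kb from any start.

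No whole list of the series had such a share. Over the 27 other lists with more than 100 peaks, the promoter share ran from 14.3% for JunB with KLA to 31.7% for PPARγ. Applying the same rule to other AP-1 lists gave lower shares too. FosL2 Veh peaks that overlapped none of ATF3, Jun and JunD were promoter peaks in 230 of 566 cases (40.6%), JunB Veh peaks in 19 of 125 (15.2%), and peaks held by ATF3, Jun or JunD alone of the 3 in 21%, 25.8% and 42.4%. In these sets CCAAT was near its share at gene starts. Promoter peaks held it in 24.3% for FosL2, 28.7% for ATF3, 32.3% for Jun and 23.8% for JunD, and in 6 of 19 for JunB. In the 27 whole lists the CCAAT share of promoter peaks was between 20.5% and 28.1%.

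The step from 0 to 3 other monomers was gradual. Among resting Fos peaks that overlapped exactly 1 of the 3 lists, 215 of 244 held CCAAT (88.1%) and 14 held a TRE (5.74%). With 2 lists, CCAAT stood in 127 of 190 (66.8%) and a TRE in 38 (20%). With all 3, CCAAT fell to 200 of 768 (26%) and TRE rose to 457 (59.5%). The promoter share moved with CCAAT, from 93.7% through 86.1% and 67.4% to 25.4%. Among promoter peaks alone, CCAAT was present in 97.2%, 93.3%, 83.6% and 47.7% of those with 0, 1, 2 and 3 lists. The rule set the number of lists, and these shares describe its classes.

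**Figure D2:**
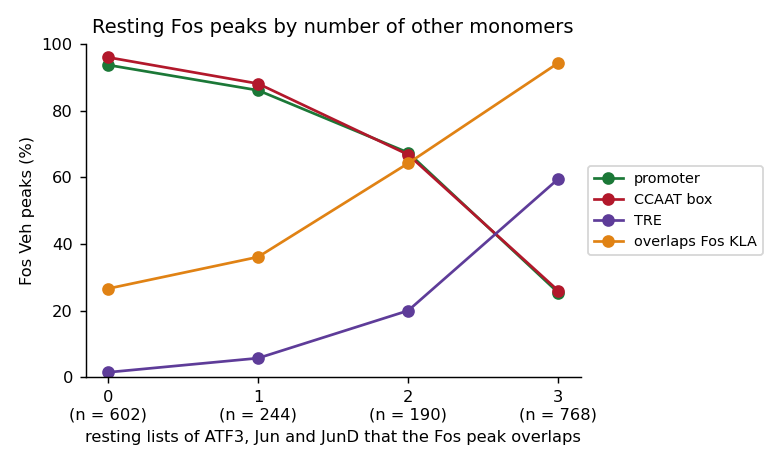
Share in percent of resting Fos peaks that were promoter peaks, held a CCAAT box or a TRE in the central 200 bp, or overlapped a Fos peak with KLA, against the number of the resting ATF3, Jun and JunD lists that the peak overlapped (602, 244, 190 and 768 peaks). CCAAT falls from 96% to 26% while TRE rises from 1.5% to 59.5%.

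CpG content followed the promoters. With at least 50% G+C and an observed to expected CpG ratio of 0.6 or more in the central 200 bp, 494 lone Fos peaks were CpG-rich (82.1%, 78.8% to 84.9%) and 401 of the others (33.4%), a difference of 48.7 points (44.5 to 52.6). Over all resting Fos peaks it was 49.6%, and over the 27 other lists it was 3.89% to 19.9%. The median G+C was 61.5% in the lone Fos peaks and 56% in the others, and the median CpG ratio was 0.785 against 0.377. At promoters alone, 484 of 564 lone Fos peaks (85.8%) and 374 of 533 others (70.2%) were CpG-rich, beside 10533 of 21938 gene promoters (48%). Other promoter motifs were near or below the level of CpG-rich gene starts. The windows differ in place, since the promoter peaks were centred at a median of -71 bp and the gene windows on the start itself. Not all lone Fos peaks were CpG-rich either. How far these differences shift the shares was not tested. The Sp1 letters GGGGCGG were in 272 lone Fos peaks (45.2%) and in 44.3% of CpG-rich gene starts. The ETS letters CCGGAAG were in 51 (8.47%) and 16.7%, the NRF1 letters GCGCATG in 11 (1.83%) and 6.47%, and the YY1 letters AAGATGGC in 16 (2.66%) and 4.66%. The CRE, TGACGTCA, was in 7 lone Fos peaks (1.16%), 1.08% of the others and 3.3% of CpG-rich gene starts. Its first 6 bases, TGACGT, which every CRE also holds, were in 53 (8.8%) and 10.3%. The E-box CACGTG was in 30 (4.98%) and 8.48%, the NF-κB letters GGGACTTTC in 1, and TTGCGCAA or TTGCATCA of CEBP in none, which allows a share of up to 0.634%. The PU.1 letters ACTTCCT were in 22 lone Fos peaks (3.65%), in 14% of the others and in 4.66% of CpG-rich gene starts. Among promoter peaks alone they were in 3.55% of the lone Fos peaks and 9.19% of the others.

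The relation of CCAAT to the lone Fos peaks was also counted from the side of the gene promoters. It covers the same peaks and was counted after the CCAAT share had been seen, so it is a description and not separate support. The number of CCAAT sites in the 200 bp before the start of CpG-rich protein-coding genes was set against the peaks within 500 bp of that start. A lone Fos peak was at 80 of 7175 such promoters with no site (1.11%), at 88 of 2194 with 1 (4.01%), at 180 of 801 with 2 (22.5%, 19.7% to 25.5%) and at 158 of 363 with 3 or more (43.5%, 38.5% to 48.7%). Any resting Fos peak stood at 2.22%, 8.8%, 37.2% and 62.5% of them. The resting lists of the other monomers showed no such rise. ATF3 peaks stood at 18.4%, 20.6%, 20.5% and 20.1%, Jun peaks at 12.9%, 15.4%, 16.6% and 12.1%, and JunD peaks at 22.6%, 23.1%, 21.2% and 16%. FosL2 peaks were at 5.55% with no site and 4.41% with 3 or more. PU.1 peaks were at 33.2% and 36.9%. With KLA the Fos list again rose with the number of sites, from 8.52% through 10.9% and 18.6% to 28.4%. In promoters that were not CpG-rich, a lone Fos peak was at 21 of 7808 with no site (0.269%) and at 17 of 154 with 3 or more (11%, 7.01% to 17%).

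**Figure D3:**
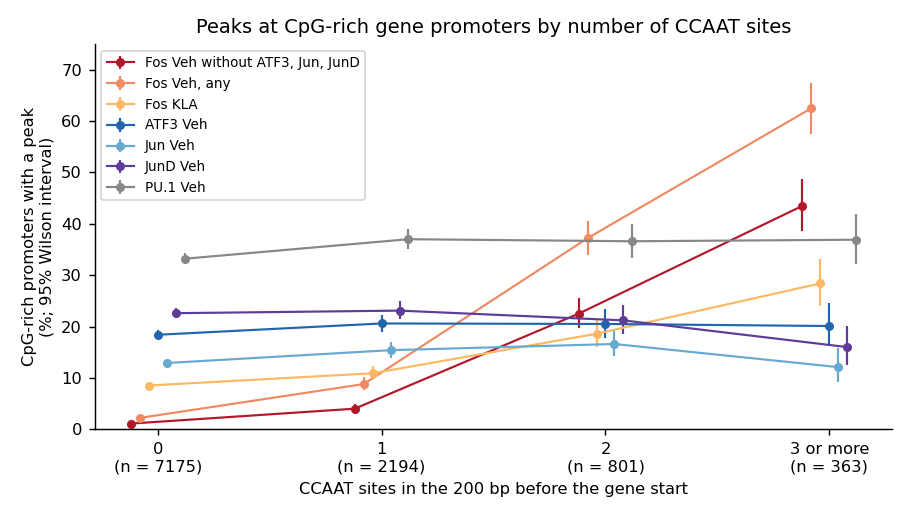
Share in percent, with 95% Wilson intervals, of CpG-rich protein-coding gene promoters with a peak within 500 bp of the gene start, against the number of CCAAT sites in the 200 bp upstream (n under each). The resting Fos peaks rise from 2.22% to 62.5% and Fos with KLA from 8.52% to 28.4%, while ATF3 stays between 18.4% and 20.6%, Jun between 12.1% and 16.6% and JunD between 16% and 23.1%.

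The deposited counts of the lone Fos peaks were not low for the list. They ran from 13 to 112 with a median of 26 (quartiles 19.2 and 36), and those of the other Fos peaks from 13 to 115 with a median of 21 (17 and 28). Among the 10% of the list with the lowest counts 41 of 181 peaks were lone (22.7%, 17.2% to 29.3%), and in the 10% with the highest counts 97 of 181 (53.6%, 46.3% to 60.7%). The deposited score, a scaled measure of how well a peak's rank repeated between experiments, had a median of 886.5 for lone Fos peaks and 740.5 for the others, on a scale with a top of 1000 that 225 of the 602 reached. Of the 100 resting Fos peaks with the highest counts, 56 were lone and 96 were promoter peaks. The 38 lone peaks outside promoters were weaker, with a median of 19.5 against 26 for the 564 at promoters.

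The highest count of a lone Fos peak, 112, was at chr7:3644840-3645227, between Gm15927, a lncRNA, and Cnot3, a subunit of the CCR4-NOT complex that shortens mRNA tails. This peak recurred in Fos with KLA with a count of 70, in Balb/cJ Fos with KLA with 102, in PU.1 with KLA with 29 and in PPARgKO ATF3 with 19, and in no other list. The second, with 97, was at chr7:113207174-113207388 upstream of Arntl, which encodes the clock factor BMAL1. It had a count of 48 in Fos with KLA, 45 in PPARγ, 125 in resting PU.1 and 16 in Balb/cJ ATF3 with Veh. The third, with 96, was at chr13:119690015-119690243 upstream of Hmgcs1, an enzyme of cholesterol synthesis. Its counts were 62 in Fos with KLA, 56 in PPARγ, 206 in resting PU.1, 47 in PU.1 with KLA, 34 in ATF3 with KLA and 18 in PPARgKO ATF3. The peak of 94 at Sharpin, a part of the linear ubiquitin ligase, and Maf1, a repressor of RNA polymerase III, was otherwise only in Fos with KLA, with 60. Across these 4 loci the list that recurred each time was Fos with KLA.

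The next 8 promoter peaks had resting counts of 80 to 90. They were at Tnrc6b, which acts in miRNA silencing (90), between Zfyve21 and the DNA repair gene Xrcc3 (89), at Dolpp1, an enzyme of dolichol recycling (87), at Ppp6r3, a subunit of protein phosphatase 6 (85), at the stress granule gene G3bp1 (83), between 1700041G16Rik and Ap3m2, a subunit of the AP-3 sorting complex (83), at Jpt2 (82), and between Tepsin and Ndufaf8, an assembly factor of mitochondrial complex I (80). Fos with KLA held 6 of these 8, with counts of 51 to 63, and the exceptions were the loci of Ap3m2 and Jpt2. None of the 12 strongest promoter peaks overlapped a peak of Jun, JunD, JunB or FosL2 in any condition or strain, and 3 overlapped ATF3 outside the resting C57Bl/6EiJ list. Each of the 12 held 2 to 5 CCAAT sites and no TRE.

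Outside promoters the strongest lone Fos peak had a count of 67 and lay in an intron of Nfic, a member of the nuclear factor I family, 2000 bp from a transcript start. It recurred only in PPARγ, with a count of 23. The peak near Cirbp, the cold-inducible RNA-binding protein, had a resting count of 45 and recurred in 10 lists, Fos (41) and Jun (28) with KLA among them. The other 6 of the 8 strongest were near Tle2 (33), Arhgap12 (31), Elf2 (31), Igf1r (28), Ddx19a (28) and 1810024B03Rik (25). Those near Igf1r and Ddx19a were in no other list. All 8 held 2 to 4 CCAAT sites, and over the 38 peaks outside promoters 30 held at least 1 (78.9%, 63.7% to 88.9%), against 21.8% of the 669 other Fos peaks outside promoters.

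At the low end, 5 lone Fos peaks shared the lowest count of 13. Among them were peaks in an intron of Stk10 and in an intron of Dpysl2. The Stk10 peak held 3 CCAAT sites and overlapped 2 other lists. The Dpysl2 peak held no CCAAT and overlapped 15 other lists, Fos (71), ATF3 (74), Jun (30) and JunD (416) with KLA among them, and was 517 bp from the nearest of the 3 resting lists.

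The rule cut at 1 shared base. The median gap from a lone Fos peak to the nearest resting ATF3, Jun or JunD peak was 13600 bp, 346 peaks (57.5%) were more than 10 kb away, and 96 (15.9%) were within 1000 bp. The strongest 50% of the Fos list held 372 lone peaks, and the whole list held 945 when only the strongest 50% of the other 3 lists were used. The closest 3 were at the promoter of Rab8a (gap 1 bp, count 28), at the promoter of H3f3b, which encodes histone H3.3 (gap 2 bp, count 40), and 8285 bp from the start of the lncRNA gene Zfas1 (gap 10 bp, count 16). On the other side of the threshold, the Fos peak at Sp1 (count 57) shared 5 bp with an ATF3 peak, that at Tob1 (56) shared 6 bp with JunD and that at Sptlc2 (68) shared 9 bp with JunD. All 3 were promoter peaks with 2 or 3 CCAAT sites and no TRE. Inside the rule, 543 of the 602 were promoter peaks with CCAAT and no TRE.

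Each gene list examined had 0 to 4 lone Fos peaks at its promoters. Starts of 641 protein-coding genes, 2.93% of 21911, lay within 1000 bp of a lone Fos peak. Of 26 immediate-early genes only Ier5 did (count 20, 2 CCAAT sites), and 5 others, Fosb, Jund, Atf3, Klf6 and Srf, lay beside another Fos peak (19.2%, beside 2.55% of all protein-coding genes). None of 20 genes of the TLR4 response, such as Tnf, Il1b and Nfkbia, had a resting Fos peak of either kind at the promoter. None of 16 macrophage genes had a lone one, while Spi1, which encodes PU.1, had another Fos peak. Among 84 cytoplasmic ribosomal protein genes 1 had a lone Fos peak (Rpl36al), among 78 mitochondrial ones 4 (Mrpl18, Mrpl41, Mrpl51 and Mrps18b), among 39 proteasome genes 1 (Psmc3), among 68 genes named for initiation and elongation factors 2 (the eIF2α kinases Eif2ak1 and Eif2ak3), and among 68 histone genes 2 (Hist1h3g and Hist2h2aa2). These shares, 0% to 5.13%, are read against the 2.93% of all protein-coding genes. Within 1000 bp of an snRNA gene lay 1 lone Fos peak (0.166%, beside 0.25% of the other Fos peaks), of an snoRNA gene 2 (0.332%, beside 0.0832%) and of a tRNA gene 3 (0.498%, beside 0.166%). No lone Fos peak had more than 50% of its central 200 bp in repeats, and 459 had none. The peaks fell on all autosomes and the X chromosome, most on chromosome 11 (63) and chromosome 7 (58). On the X chromosome 7 of 9 resting Fos peaks were lone.

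The macrophage factors were met less often than at other Fos peaks. PU.1 with Veh overlapped 194 lone Fos peaks (32.2%, 28.6% to 36.1%), 788 of the others (65.6%) and 54.4% of all resting Fos peaks, with a difference of -33.3 points (-37.8 to -28.6). CEBPα with Veh overlapped 25 (4.15%, 2.83% to 6.06%), 425 of the others (35.4%) and 24.9% of all, with a difference of -31.2 points (-34.3 to -27.9). PPARγ with Veh overlapped 291 (48.3%, 44.4% to 52.3%), 981 of the others (81.6%) and 70.5% of all, with a difference of -33.3 points (-37.8 to -28.7). With peak centres within 100 bp in place of 1 shared bp, in the rule as well, 756 peaks were lone. Of these, 21.2% met PU.1 and 30.2% PPARγ. With only the strongest 50% of the ATF3, Jun and JunD lists in the rule, 945 were lone and the CEBPα share was 6.98%. All 3 factors met at 8 lone Fos peaks and at 277 others. The gap was smaller among CpG-rich promoter peaks but remained there. PU.1 overlapped 153 of 484 lone and 195 of 374 other peaks of that kind, a difference of -20.5 points (-26.9 to -13.9). For CEBPα it was -13.1 points (-17.5 to -9.09) and for PPARγ -20.9 points (-27.1 to -14.3). With KLA, PU.1 overlapped 216 lone Fos peaks (35.9%, beside 59.8% of all) and CEBPα 30 (4.98%, beside 25.7%).

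Against CpG-rich promoters with no resting AP-1 peak of Fos, ATF3, Jun or JunD the direction was the opposite. CpG-rich gene promoters with a lone Fos peak and no resting ATF3, Jun or JunD peak within 500 bp numbered 456, and 6759 had no resting peak of Fos or of the 3. PU.1 with Veh stood at 186 of the 456 (40.8%, 36.4% to 45.4%) and at 22.2% of the 6759, a difference of 18.6 points (14 to 23.2). PPARγ stood at 254 (55.7%) and 33.7%, a difference of 22 points (17.3 to 26.6), and CEBPα at 20 (4.39%) and 2.13%, a difference of 2.26 points (0.682 to 4.57). Over all 10533 CpG-rich gene promoters, those with ATF3, Jun or JunD included, the shares were 34.3% for PU.1, 48.8% for PPARγ and 7.29% (6.81% to 7.8%) for CEBPα. Set against these, the promoters with a lone Fos peak had the higher shares of PU.1 and PPARγ and the lower share of CEBPα (2.86% to 6.68%). Expression was not measured here, and whether the promoters of these 2 sets differ in activity was not tested. Where a PU.1 peak overlapped a lone Fos peak, their centres were a median of 79.5 bp apart, and 63 of 194 pairs were within 50 bp (32.5%). For PPARγ the median was 66 bp. The overlapping peaks were in the lower or middle part of their own lists, at a median percentile by count of 36.3 for PU.1, 38.8 for CEBPα and 49.1 for PPARγ, while those at other Fos peaks stood at 67.3, 64.5 and 79.6.

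Of the 2 other resting AP-1 lists, FosL2 overlapped 13 lone Fos peaks (2.16%, 1.27% to 3.66%) and 632 of the others (52.6%), with 35.8% over all resting Fos peaks. JunB, a short list of 463 peaks, overlapped 1 (0.166%) and 37 (3.08%), with 2.11% over all. At CpG-rich promoters without a resting peak of Fos or of the 3, FosL2 stood at 1.38%, and at those with a lone Fos peak at 1.54%, a difference of 0.159 points (-0.688 to 1.78). Over all CpG-rich promoters FosL2 stood at 5.54%.

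After KLA a minority of the lone Fos peaks were found again. Fos with KLA overlapped 160 of the 602 (26.6%, 23.2% to 30.2%) and 934 of the others (77.7%), a difference of -51.1 points (-55.2 to -46.7), and 60.6% of all resting Fos peaks were found again. At CpG-rich promoters it stood at 132 of the 456 with a lone Fos peak (28.9%, 25% to 33.3%). Of the 6759 with no resting peak of Fos or of the 3, it stood at 163 (2.41%, 2.07% to 2.81%), a difference of 26.5 points (22.5 to 30.9). No other list differed by more points between these 2 sets of promoters, although Fos with KLA in Balb/cJ had the same difference of 26.5 points (22 to 31.2). ATF3, Jun and JunD with KLA differed by 7.34, 1.44 and 5.44 points, and the interval for Jun held 0. The 6759 were chosen to lack these monomers at rest. Fos with KLA stood at 10.5% of all 10533 CpG-rich promoters. It stood at 20.9% of the 2897 that had ATF3, Jun or JunD but no Fos at rest. For Balb/cJ Fos with KLA these 2 shares were 33% and 63.7%, beside 42.8% with a lone Fos peak.

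Recurrence with KLA moved with the resting Fos count. The lone Fos peaks were ordered by count and divided into 4 parts of nearly equal size. In the lowest, with counts of 13 to 19, Fos with KLA held 17 of 151 (11.3%, 7.15% to 17.3%), in the next 2 parts 25 and 36 of 150 (16.7% and 24%), and in the one with counts of 36 to 112 it held 82 of 151 (54.3%, 46.4% to 62%). The list with KLA in Balb/cJ rose little, from 37.7% to 43%, and PPARγ (45.7% and 47%) and PU.1 (29.8% and 36.4%) had overlapping intervals between the lowest and the highest part. The centres of resting and KLA Fos peaks were a median of 26 bp apart, and 117 of 160 were within 50 bp. The few lone Fos peaks without a CCAAT box recurred in 12 of 24 cases (50%, 31.4% to 68.6%), those with 2 sites in 50 of 247 (20.2%, 15.7% to 25.7%) and those with 3 or more in 75 of 235 (31.9%, 26.3% to 38.1%). Of the 9 with a TRE, 5 recurred (55.6%, 26.7% to 81.1%), and of the 593 without one, 155 did (26.1%, 22.8% to 29.8%). Within the KLA list the recurring lone peaks were weak, at a median percentile of 30.9 by count against 85.6 for the other Fos peaks.

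**Figure D4:**
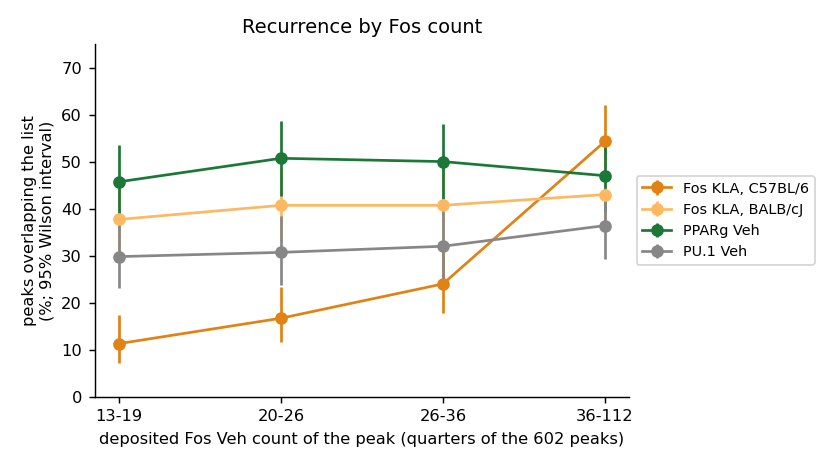
Share in percent, with 95% Wilson intervals, of the 602 resting Fos peaks without ATF3, Jun or JunD that overlapped Fos with KLA in C57Bl/6EiJ or Balb/cJ, PPARγ or PU.1 with Veh, against their deposited Fos count in 4 parts of nearly equal size. Fos with KLA rises from 11.3% to 54.3%, while Balb/cJ Fos with KLA goes from 37.7% to 43%, PPARγ from 45.7% to 47% and PU.1 from 29.8% to 36.4%.

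With KLA the other monomers overlapped a smaller share of lone Fos peaks than of the other Fos peaks. The ATF3, Jun and JunD lists with KLA are related to those of the rule, so their shares only describe the selected peaks. At the 456 CpG-rich promoters with a lone Fos peak, ATF3 with KLA stood at 13.6%, JunD at 12.5% and Jun at 4.17%. At the 6759 without a resting peak of Fos or of the 3 the shares were 6.26%, 7.06% and 2.72%. Over all 10533 they were 21.4%, 22.3% and 12%. ATF3 with KLA overlapped 78 lone Fos peaks (13%, beside 56.9% of all resting Fos peaks), JunD 64 (10.6%, beside 57.1%), Jun 22 (3.65%, beside 46.5%), JunB 13 (2.16%, beside 38.5%) and FosL2 13 (2.16%, beside 33.5%). At least 1 of the 6 AP-1 lists with KLA held 214 of the 602 (35.5%, beside 71.8% of all resting Fos peaks). Of these, 97 were held by Fos alone (16.1% of the 602, beside 7.71% of all). Applying the rule to the KLA lists themselves left 1527 of 24365 Fos peaks without ATF3, Jun or JunD, and 100 of those overlapped a lone resting Fos peak. The 1527 were unlike the resting set. Promoter peaks were 24% of them, CCAAT stood in 30.3% and a TRE in 41.9%. Without those that overlapped any resting Fos peak, CCAAT stood in 322 of 1381 (23.3%) and a TRE in 46.3%. In Balb/cJ, 6529 Fos peaks with KLA overlapped none of that strain's 3 lists, and 24.9% were promoter peaks, of which 32.3% held CCAAT.

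In Balb/cJ cells Fos with KLA overlapped 244 lone Fos peaks (40.5%, 36.7% to 44.5%), 1077 of the others (89.6%) and 73.2% of all. Either strain's KLA list held 326 of the 602 (54.2%, beside 80.2% of all) and both held 78 (13%, beside 53.7%). Any list of the strain overlapped 357 (59.3%, 55.3% to 63.2%) and 83.9% of all resting Fos peaks. The other Balb/cJ lists overlapped fewer lone peaks. Those of ATF3, Jun and JunD are of the same monomers as the lists of the rule, so their shares only describe the selected peaks. JunD held 92 with Veh (15.3%) and 148 with KLA (24.6%), ATF3 38 (6.31%) and 100 (16.6%), Jun 6 (0.997%) and 31 (5.15%), and JunB with KLA 20 (3.32%). Over all resting Fos peaks the shares were 57.7% and 63% for JunD and 48.1% and 60.7% for ATF3. They were 39.5% and 37.8% for Jun and 43.4% for JunB with KLA. Against CpG-rich promoters without a resting peak of Fos or of the 3, JunD with Veh stood at 20.6% with a lone Fos peak and 14.7% without, a difference of 5.88 points (2.31 to 9.91). Jun with Veh differed by -0.0549 points (-0.65 to 1.32). Over all 10533 CpG-rich promoters JunD with Veh stood at 28.4% and Jun with Veh at 5.68%. Both were above the 20.6% and 0.877% with a lone Fos peak. The promoters with a lone Fos peak were chosen to lack resting ATF3, Jun and JunD, and the 10533 were not. That order therefore describes the selection.

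In PPARgKO cells, where Fos was not assayed, at least 1 of the 3 lists overlapped 176 lone Fos peaks (29.2%, 25.7% to 33%), 1031 of the others (85.8%) and 66.9% of all. With centres within 100 bp, in the rule as well, the share was 19.4% of 756 lone peaks. ATF3 held 100 (16.6%, beside 58.9% of all), JunD 99 (16.4%, beside 48.7%) and Jun 6 (0.997%, beside 26.2%). No peak of the same 3 monomers in the C57Bl/6EiJ list with Veh overlaps these regions by the rule, so the shares in the knockout have no counterpart with which the genotypes could be compared. At CpG-rich promoters the knockout ATF3 list stood at 20.6% with a lone Fos peak and at 13.4% of those without a resting peak of Fos or of the 3, and the JunD list at 21.3% and 15.2%. Their differences were 7.19 points (3.64 to 11.2) and 6.05 points (2.43 to 10.1). Over all 10533 CpG-rich promoters the shares were 29.4% for knockout ATF3 and 25.4% for knockout JunD. These include promoters with resting ATF3, Jun or JunD, which the rule kept out of those with a lone Fos peak. The higher shares therefore describe the selection. The recurring peaks were weak in these lists too, at median percentiles of 20.6 and 31.6, and the centres of JunD peaks were a median of 91 bp from the Fos centres, against 39 bp at the other Fos peaks.

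**Figure D5:**
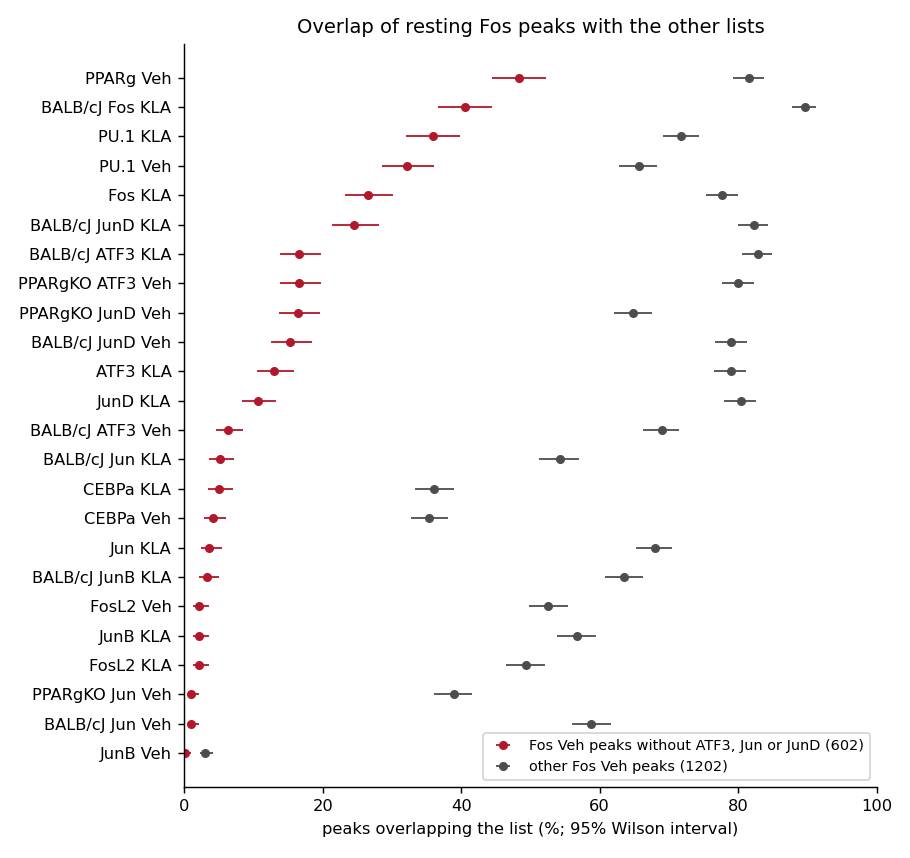
Share in percent of the 602 resting Fos peaks without ATF3, Jun or JunD (red) and of the other 1202 resting Fos peaks (grey) that overlapped each list of more than 9 peaks by at least 1 bp, leaving out the resting ATF3, Jun and JunD lists of C57Bl/6EiJ, which the rule used, with 95% Wilson intervals. Labels without a strain are C57Bl/6EiJ lists. In every list shown the red point lies lower, from 48.3% against 81.6% in PPARγ to 0.166% against 3.08% in JunB with Veh.

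Counted over all lists, 62 lone Fos peaks were found in no other list, 103 in 1, 325 in 2 to 5 and 112 in more than 5 of 28, with a median of 3. The 28 include the 3 lists of the rule, which hold no lone Fos peak. The median for the other Fos peaks was 20. In the 20 AP-1 lists outside the rule, 157 of the 602 and 17 of the 1202 other Fos peaks had no peak. The median was 1 list for the lone Fos peaks, against 14.5 lists for the other Fos peaks. A list of Jun, JunD or JunB in some strain, genotype or treatment overlapped 280 of the 602 (46.5%), and 322 met none. Over all resting Fos peaks that share was 81.2%. These lists include the resting Jun and JunD lists of the rule, which hold no lone Fos peak.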

How the data were processed

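ChIP-seq reads of TGEMs were mapped by the authors with Bowtie2 to mm10, or for Balb/cJ to a genome of that strain whose positions were shifted back to mm10. Peaks were called with HOMER against the input of the same treatment, and peaks with an irreproducible discovery rate (IDR) of 0.05 or more over replicate experiments were removed, which left 1 list per condition. Versions of Bowtie2 and HOMER are not given in the sources used here. The deposited count is a whole number per peak, not scaled to library size, and how replicates were combined in it is not stated. The deposited score is the scaled IDR, which ran from 540 to 1000. Counts and scores were used only to rank and describe peaks.

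Overlap meant at least 1 shared bp. Promoter, place and distance were taken from GENCODE M21 (protein-coding and lncRNA transcripts), sequence from RefSeq GRCm38, which no peak overran on the 21 chromosomes compared. Promoter peaks had their centre within 1000 bp of a transcript start, gene promoters reached 500 bp either way, and motifs and CpG content were read in the central 200 bp. Shares have 95% Wilson and differences 95% Newcombe intervals, computed in Python 3.11.15 with numpy 2.4.6 and pandas 2.3.3 and tested on simulated data. No significance test was run. Members and gene lists were chosen with earlier results of these data known. The CCAAT alternatives, the CCAAT number, profile, spacing and orientation, and the gene promoters by CCAAT number were added after seeing the data. Named loci were the 12 promoter and 8 other lone Fos peaks with the highest counts, any at an immediate-early, TLR4 or macrophage gene, the 3 with the lowest counts, and the 3 nearest the overlap threshold on each side. Some loci that this rule or the gene lists name are not reported here. The 4 inputs and the empty list of resting Fos in Balb/cJ were not used.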

Additional observations from a re-analysis of the deposited data

How the results depend on the processing

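Only the number of lone Fos peaks and shares of them were recomputed. No difference from the other Fos peaks or from gene promoters was recomputed, so whether any difference reverses was not tested. Of 76 recomputed values over 11 results, 44 stayed within a set limit and 32 moved outside it. The limit was the interval of the reported share or, for the number of lone Fos peaks, 1.5 times it. That number stayed within the limit by centres (756), by reciprocal overlap (727), at least 1000 bp away (506) and without FosL2 or JunB (588). Counting centres within 100 bp as shared gave a promoter share of 91.1%, PU.1 21.2%, PPARγ 30.2%, any Balb/cJ list 51.1%, any knockout list 19.4% and CCAAT 92.6%. A reciprocal overlap of 50% gave 21.7% for PU.1, 32.7% for PPARγ, 52.5% for Balb/cJ, 21.7% for the knockout and 93.7% for CCAAT. The strongest 50% of the resting Fos list left 372 lone Fos peaks, with promoters at 96%, Fos with KLA at 34.1% and CCAAT at 98.4%. Using only the strongest 50% of the ATF3, Jun and JunD lists left 945, with promoters at 90.9%, PU.1 39.6%, CEBPα 6.98%, PPARγ 54.6%, Fos with KLA 31%, Balb/cJ 69.9%, the knockout 39.7%, TRE 3.28% and CCAAT 92.5%. The promoter share was 87.5% within 250 bp, 90.5% from 1000 bp before to 100 bp after a start, and 85.7% with protein-coding starts alone. CpG-rich peaks were 72.8% in the central 100 bp and 67.8% with limits of 55% and 0.65. CCAAT stood in 88.4% of the central 100 bp, and 2 or more sites in 80.1% of the usual window. The cause of each shift was not tested. No paired analysis was possible because each condition had 1 list and no result comes from a test. Membership rests on 3 lists that differ in depth, and a peak missed in one of them makes a Fos peak lone.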

Other observations

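Among the 1202 Fos peaks that did overlap ATF3, Jun or JunD, recurrence with KLA differed by number of CCAAT sites. Fos with KLA overlapped 623 of 660 without the pentamer (94.4%, 92.4% to 95.9%), 167 of 255 with 1 site (65.5%, 59.5% to 71.1%), 86 of 174 with 2 (49.4%, 42.1% to 56.8%) and 58 of 113 with 3 or more (51.3%, 42.2% to 60.3%). Their resting counts had medians of 19, 20, 25 and 34, so the groups with the lower recurrence had the higher counts. Place and TRE differed between the groups too. Of the 660 without the pentamer, 523 lay outside promoters. Fos with KLA overlapped 95.2% of the other Fos peaks outside promoters, 55.7% of those at promoters and 97.6% of those with a TRE. Whether recurrence differs by CCAAT within these classes was not tested. Peaks with both CCAAT and a TRE numbered 102 in this set. On the Balb/cJ side, Fos with KLA stood at 30.6%, 34.9%, 45.2% and 43% of CpG-rich gene promoters with 0, 1, 2 and 3 or more CCAAT sites. PPARγ stood at 47.2%, 51%, 54.9% and 54.3% of the same promoters.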
